A study of Mus musculus with 27 samples.

Results

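The contacts of the N3 enhancer of *Nkx3-2* were compared between the limb buds of mouse embryos in 6 of the 27 4C-Seq libraries of the series, 3 from forelimb buds and 3 from hindlimb buds. The 6 are all the libraries whose labels give viewpoint N3 with forelimb or hindlimb as the tissue. Both groups held untreated embryos at E14.5, of strain C57BL/6Ncrl by the strain label and C57BL/6NJ by the protocol, and each replicate was a pool of 5 to 6 embryos, so the spread between replicates is that between pools. Hindlimb replicate 3 is so numbered by its title, which was followed, while another label field calls it replicate 1. Hindlimb replicates 1 and 3 were not copies of one library, since only 15.1% of the chromosome 5 fragments with reads in either had reads in both. No allele, transgene or agent distinguished the groups, and no Longshanks mice were used in this assay. A DNA assay has no expression marker by which the labelled tissue could be checked.

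*Nkx3-2* encodes a homeodomain transcription factor that represses cartilage maturation during skeletal development. Enhancers are regulatory sequences that act on promoters over long distances, mostly within a topologically associating domain (TAD), a stretch of chromosome whose parts meet more often with each other than with their surroundings. In 4C-Seq, crosslinked chromatin is cut and religated, and everything joined to one position, the viewpoint, is amplified and sequenced, so that reads on a distant fragment are taken as contacts. The forelimb and the hindlimb are built by closely related programmes with different positional regulators, and the comparison asks whether this enhancer meets the same sequences in both.

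The N3 enhancer lies at chr5:41536216-41537263 (mm10), 1048 bp in an intergenic stretch. Its viewpoint is the end of a 5759-bp *BglII* fragment, chr5:41530052-41535810, and position 41535802, the middle of the nested primer, was taken as 0 for all distances. The enhancer itself lies on the next fragment, chr5:41535811-41540795, whose midpoint is 2.5 kb beyond the viewpoint. The primer and the junctions that the results turn on are shown first. The nested primer ends with 4 bases of the *BglII* site, in capitals in its line, and the whole site is in capitals in the genomic lines, which are the viewpoint and the junctions beside the most read fragments of the TAD. All are from the plus strand, the primer from the oligonucleotides of the study and the rest from GRCm38.
N3 nested primer, chr5:41535790-41535813: gttgtaagtagcagacacagAGAT
viewpoint, chr5:41535798-41535827: tagcagacacagAGATCTtggacaggtgag
junction 21 kb before the viewpoint, chr5:41514424-41514453: gttctgggtctcAGATCTgtctcctggctg
junction 78 kb beyond it, chr5:41613399-41613428: attctctaagcaAGATCTctgcacttctgt

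The libraries held 1772337, 1440034 and 1421108 reads in forelimb replicates 1 to 3 and 1628953, 924023 and 1582176 reads in hindlimb replicates 1 to 3. Chromosome 5 held 16.5 to 28.8% of them, and 62.2 to 81.2% of the chromosome 5 reads lay within 20 kb of the viewpoint. Those fragments were left out, since reads so close can come from uncut or self-joined template as well as from contacts. What remained were 51852 fragments and 50071 to 106902 distant reads per library, the fewest in hindlimb replicate 2. Shares of reads below are shares of these distant chromosome 5 reads. Intervals and limits on counts cover counting error only, because the reads carry no molecular identifiers.

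Between 8.7 and 24.1 kb beyond the viewpoint, on the side of *Nkx3-2*, 4 of 5 fragments held more reads in every forelimb library than in any hindlimb library. The outermost, chr5:41554189-41565577 with its midpoint at 24.1 kb, carried 13, 17 and 14 reads in forelimb replicates 1 to 3 and 1, 0 and 2 reads in hindlimb replicates 1 to 3. These fragments were singled out after their values were seen, and no test was made of the 3 that lie within 20 kb. Of the 4528 chromosome 5 fragments with reads beyond 20 kb, 0.994% had forelimb shares wholly above the hindlimb shares and 0.287% wholly below. Of these 4528, 3147 had reads in 1 library and 781 in 2, and such fragments cannot separate the limbs. Of the 134 with reads in all 6 libraries, 11.9% lay wholly above and 2.24% wholly below. These rates are of shares, whereas the counts given here are raw reads. The fragment that ends where the outermost starts, chr5:41552594-41554188, lies just inside the excluded stretch and held 9, 15 and 14 reads against 1, 0 and 1. Nearer still, chr5:41548256-41550628 held 60, 88 and 43 reads against 7, 8 and 2, and chr5:41540796-41548255 held 136, 90 and 85 against 12, 24 and 45. The fragment between these pairs, at 15.8 kb, held 2, 5 and 0 reads against none, and that at 2.5 kb, next to the viewpoint, overlapped between the limbs, with 32593 to 126397 reads against 102697 to 137006. Neighbouring fragments can count the same read when it spans their site and are not independent.

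**Figure D1:**
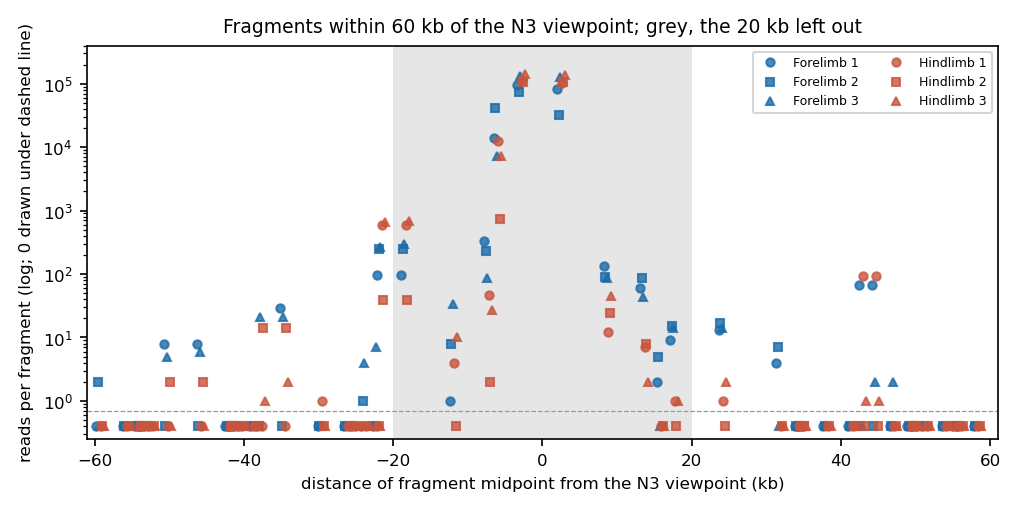
Reads per *BglII* fragment (log axis) against the distance of the fragment midpoint from the N3 viewpoint in kb, 1 point per library, with fragments without reads drawn under the dashed line. The forelimb points lie above the hindlimb points at -7.3, 8.7, 13.6, 17.6 and 24.1 kb, the last with 13, 17 and 14 reads against 1, 0 and 2. The pair of fragments near 20 kb before the viewpoint ranges from 39 to 673 reads.

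On the other side the largest count of the TAD lay at the edge of the exclusion. The 557-bp fragment chr5:41513880-41514436, 21.6 kb before the viewpoint, carried 97, 247 and 271 reads in forelimb replicates 1 to 3 and 601, 39 and 663 in hindlimb replicates 1 to 3. Its neighbour across the junction shown above, chr5:41514437-41520408, lies 18.4 kb away, was therefore left out, and held 98, 247 and 302 against 602, 39 and 673. The hindlimb held both the highest and the lowest values, so the limbs overlapped. The counts on both sides of the junction were equal or nearly so in each library. Nearer the viewpoint on this side, every forelimb library was above every hindlimb library only at chr5:41527487-41529533. This fragment, 7.3 kb before the viewpoint, held 331, 228 and 87 reads against 46, 2 and 27. It was also singled out after its values were seen and was not tested. The fragments next to it, at 6 and 11.9 kb, overlapped between the limbs.

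Over the TAD as a whole, chr5:41050000-41810000, the limbs overlapped in the share of fragments with reads and in the share of reads. Parts of the TAD in which the limbs did not overlap are given separately. The TAD held 273 fragments beyond 20 kb, and 123 of them had reads in at least 1 library. Reads fell on 48, 44 and 59 of them in the forelimb replicates and on 33, 21 and 59 in the hindlimb replicates, which is 18.4% ± 2.85 (SD, n = 3) against 13.8% ± 7.12 (SD, n = 3). Hindlimb replicate 3 equalled the highest forelimb library and hindlimb replicate 2 was the lowest of all. The difference of 4.64 percentage points gave p = 0.5 in an exact two-sided permutation test of 20 arrangements, whose smallest p is 0.1.

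The share of distant reads inside the TAD was 0.969, 0.978 and 1.90% in the forelimb and 1.06, 0.350 and 2.64% in the hindlimb. The means were 1.28% ± 0.535 and 1.35% ± 1.17 (SD, n = 3 each), and the difference of -0.07 percentage points gave p = 0.8 in the exact permutation test. The sign of this difference rests on the fragment 21.6 kb before the viewpoint: without it the forelimb share was higher by 0.197 percentage points, with p = 0.7 in the same exact test. The 95% Wilson intervals ran from 0.301 to 0.405% in hindlimb replicate 2 and from 2.52 to 2.76% in hindlimb replicate 3. Those of forelimb replicates 1 and 2, from 0.910 to 1.03% and from 0.916 to 1.04%, overlapped. The size of the TAD share depended on which fragments made up the total. Leaving out fragments with no read on either neighbour, an alternative chosen after seeing the data, raised it in every library. It was then 1.90, 5.55 and 8.75% in the forelimb and 3.07, 1.16 and 13.02% in the hindlimb. The limbs still overlapped, with a difference of -0.352 percentage points.

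**Figure D2:**
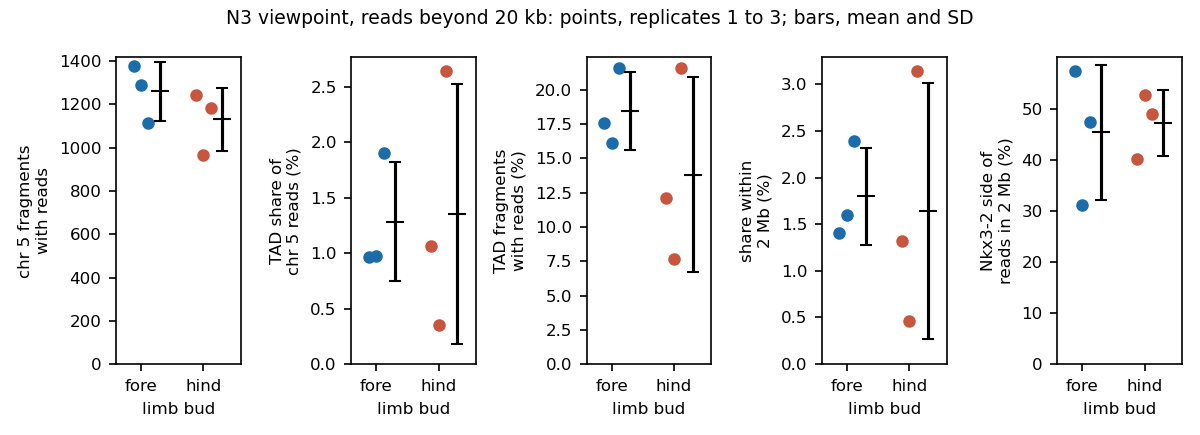
Values of the 5 single measures in each N3 library (points, replicates 1 to 3 from left to right) with the mean and SD of each limb bud, all computed on reads beyond 20 kb, every axis from 0. The limbs overlap in each panel, and hindlimb replicates 2 and 3 mark the ends of the range of the TAD share, at 0.350 and 2.64%.

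On average, the share of fragments with reads fell with distance in both limbs, on either side of the viewpoint, but not in every library. Between 20 and 200 kb before the viewpoint, away from *Nkx3-2*, 17, 16 and 20 of 74 fragments had reads in the forelimb replicates and 9, 10 and 13 in the hindlimb replicates, which is 23.9% ± 2.81 against 14.4% ± 2.81 (SD, n = 3 each). These values did not overlap. The read share of the same stretch did overlap, at 0.541% ± 0.170 in the forelimb and 0.683% ± 0.523 in the hindlimb (SD, n = 3 each). On the *Nkx3-2* side, 14, 10 and 14 of 62 fragments had reads in the forelimb and 6, 2 and 17 in the hindlimb. From 200 kb to 2 Mb the shares of fragments with reads were 4.66 and 4.47% before the viewpoint and 4.70 and 4.44% beyond it, forelimb first. From 2 to 10 Mb they were 3.31 and 3.36% before and 2.59 and 2.21% beyond. Past 10 Mb they were 1.79 and 1.64% before and 2.37 and 2.11% beyond. In hindlimb replicate 2 the share beyond the viewpoint was 3.23% up to 200 kb and 3.33% from there to 2 Mb, and in forelimb replicate 1 and hindlimb replicate 1 it was higher past 10 Mb than from 2 to 10 Mb.

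The distance bands made 8 comparisons, 4 distances on either side. Of the 8, 12.5% did not overlap in the share of fragments with reads, the one just given. Likewise 12.5% did not overlap in the share of reads, which was the band from 2 to 10 Mb beyond the viewpoint, with 2.51, 2.41 and 2.43% in the forelimb against 2.08, 1.72 and 1.67% in the hindlimb. Neither was tested, and no smaller p than 0.1 could have been reached by an exact permutation test. Within 2 Mb in all, the share of reads was 1.80% ± 0.519 in the forelimb and 1.64% ± 1.37 in the hindlimb (SD, n = 3 each), with p = 0.8 in the exact permutation test.

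The balance between the sides did not differ beyond the replicates either. Of the reads within 2 Mb, 57.4, 31.1 and 47.4% lay on the *Nkx3-2* side in the forelimb and 40.1, 52.6 and 49.0% in the hindlimb, a difference of -1.89 percentage points with p = 0.8 in the exact permutation test. With 50 kb instead of 20 kb left out around the viewpoint, the values were 58.6, 36.3 and 59.0% against 61.2, 75.2 and 69.9%. The difference was then -17.4 percentage points and the groups did not overlap, with p = 0.1, the smallest that the exact permutation test allows. Without the fragment 21.6 kb before the viewpoint alone, an alternative chosen after seeing the data, the values were 61.7, 37.5 and 57.0% against 70.0, 63.4 and 69.8%. Again the groups did not overlap, with a difference of -15.7 percentage points and p = 0.1 in the exact permutation test. With 10 kb left out the difference was 5.07 percentage points, so the balance varied with which fragments near the viewpoint were counted.

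At *Nkx3-2* itself, no library had a read on the fragment with the annotated 5′ end of the gene, chr5:41762614-41766981, 229 kb beyond the viewpoint. The same was true of the fragments with the 5′ ends of *Rab28*, a small GTPase gene, and *Bod1l*, whose 5′ end lies outside the TAD. A count of 0 allows a share of up to 0.00281% in the deepest library on this measure, hindlimb replicate 1, and up to 0.00599% in hindlimb replicate 2.

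In the 50 kb around the 5′ end of *Nkx3-2*, reads did occur, 3, 43 and 163 of them in the forelimb replicates and 86, 6 and 349 in the hindlimb replicates. The mean shares were 0.0971% and 0.195%, with p = 0.6 in an exact permutation test, and the limbs overlapped. In forelimb replicate 3 and the hindlimb replicates most of these reads lay between *Nkx3-2* and *Bod1l*, on the adjoining fragments chr5:41778843-41781546 and chr5:41781547-41781769, 244 and 246 kb from the viewpoint. The first held 0, 5 and 64 reads in the forelimb and 42, 3 and 156 in the hindlimb. Forelimb replicate 1 had none there, and most of the reads of forelimb replicate 2, 32 of them, lay on chr5:41769439-41771460, at 234.6 kb. Around *Rab28* there were 44, 13 and 1 reads against 0, 0 and 10, and around *Bod1l* 2, 0 and 4 against 2, 2 and 14. Most of the *Rab28* reads of forelimb replicate 1 lay on chr5:41716072-41719434 and its neighbour, with 22 reads each and none in the other 5 libraries.

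The 14 genes that the study lists in the selected span of chromosome 5 were measured in the same way, 25 kb to each side of their 5′ ends. Reads occurred in all 6 libraries at 2 of the 14, *Nkx3-2* and *Hs3st1*, and in none at *Cc2d2a* and *Tapt1*. At *Hs3st1*, a heparan sulfate sulfotransferase gene at -1780 kb from the viewpoint, there were 47, 55 and 18 reads against 12, 5 and 2. At *C1qtnf7*, a secreted factor gene 1980 kb beyond it, there were 2, 28 and 1 against 1, 0 and 0. The forelimb shares lay wholly above the hindlimb shares at these 2 of the 14. At *C1qtnf7* the read counts themselves did not separate, since forelimb replicate 3 and hindlimb replicate 1 each had 1 read. Their shares differed only by the number of distant reads, 67611 and 106902. Among the 2036 windows of 50 kb of chromosome 5 with reads, 2.75% had forelimb shares wholly above the hindlimb shares and 1.33% wholly below. Over the 20 regions with reads among the 24 examined here, some of which overlap, the smallest p was 0.1 in an exact permutation test and 0.667 after Benjamini-Hochberg adjustment.

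Around genes of limb development elsewhere on chromosome 5, the limbs overlapped at all 6 regions with reads. Of the 8 regions examined, *Shh*, which encodes the signal of the posterior limb bud, and *Tbx3* had no read in any library. No region had reads in all 6 libraries. *Tbx5*, a regulator of the forelimb, had no read in the forelimb and 0, 6 and 1 in the hindlimb replicates. The most read was the shared region of *Evc* and *Evc2*, ciliary genes with neighbouring 5′ ends, with 23, 30 and 352 reads in the forelimb and 112, 0 and 174 in the hindlimb. Across the 6 regions with reads, those of *Evc* and *Evc2* with the same counts, the smallest p of the exact permutation tests was 0.4.

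At the other enhancer positions of the TAD, reads must be seen beside the assay, in which primers of 3 viewpoints were pooled in the same amplification. The 50 kb around the N1 enhancer, 370 kb before the viewpoint, held 93, 20 and 16 reads in the forelimb and 10, 0 and 13 in the hindlimb. The forelimb shares, 0.0462% on average against 0.00924%, did not overlap with those of the hindlimb, with p = 0.1 in an exact permutation test, the smallest it allows, and 0.667 after adjustment over the 20 regions. Forelimb replicate 1, at 0.0928%, raised the forelimb mean, and most of its reads lay on adjoining fragments with 44 and 45. Forelimb replicates 2 and 3 had 0.0220 and 0.0237%, close to the 0.0184% of hindlimb replicate 3. The 50 kb around the N2 viewpoint held 146, 156 and 102 against 90, 18 and 185 and overlapped. Fragments at the N2 primer made up 5 of the 7 TAD fragments with reads in all 6 libraries, and all 7 had reads in at least 1 of the forelimb libraries amplified from N2. The part of the pooled primers in these reads was not tested.

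The other 2 of the 7 were the fragment 21.6 kb before the viewpoint and chr5:41608441-41613411, 75.1 kb beyond it. The latter, 11565 bases from the nearest end of *Rab28*, held 114, 62 and 227 reads in the forelimb and 39, 70 and 356 in the hindlimb. Its limb values overlapped. The 7 fragments held 27.5, 52.1 and 45.5% of the TAD reads in the forelimb and 60.7, 72.6 and 64.1% in the hindlimb. Members of this set were chosen for reads in every library, so this split is a description.

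**Figure D3:**
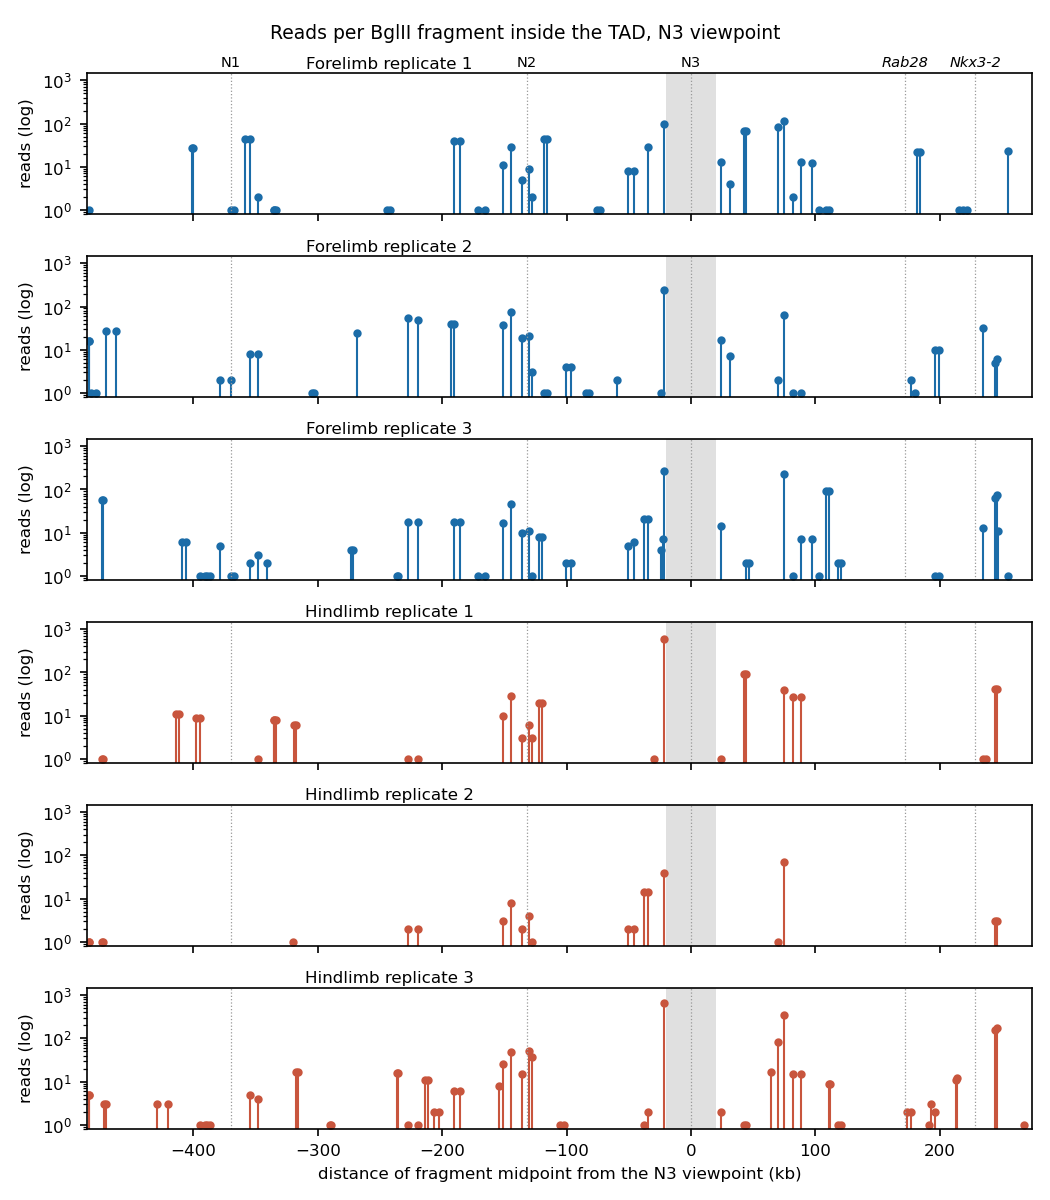
Reads per *BglII* fragment (log axis) in each of the 6 N3 libraries against the distance from the viewpoint in kb across the TAD, with the 20 kb left out in grey and dotted lines at N1, N2, N3 and the 5′ ends of *Rab28* and *Nkx3-2*. The fragments at -21.6 and 75.1 kb and those around N2 have reads in every library, most others in 1 or 2, and hindlimb replicate 2 has the fewest.

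The only TAD fragment with reads in all 3 libraries of a limb and none of the other was chr5:41165709-41165755, with 1, 2 and 1 reads in the forelimb. This 47-bp fragment contains the nested primer of N1. Over chromosome 5, 15 fragments had reads in every forelimb and no hindlimb library (0.331% of the 4528 with reads), and 7 had reads in every hindlimb and no forelimb library (0.155%). The median of their summed reads was 41 for the 15 and 19 for the 7. Of the 7, an adjoining pair lies at chr5:41845857-41849377, upstream of *Bod1l*, with 1, 1 and 7 and 1, 1 and 6 reads.

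Whether any window was called between the limbs depended on the test and its settings. Within 2 Mb, 178 windows of 10 kb had reads and 15 had enough for edgeR's quasi-likelihood test. It called 0 of the 15 (0%) at an adjusted p under 0.05, and 2 had an unadjusted p under it, both higher in the forelimb. One was the window with the fragment 24.1 kb beyond the viewpoint, with 13, 17 and 14 reads against 1, 0 and 2, a log2 fold change of 3.59 and an adjusted p of 0.231. The other, chr5:41340001-41350000, overlaps the pseudogene *Gm4754* and held 78, 78 and 36 reads against 0, 0 and 12, a log2 fold change of 4.48 and the same adjusted p. Its reads lay on adjoining fragments of equal count, and with such neighbours taken once it held 39, 39 and 18 against 0, 0 and 6. DESeq2 with its defaults called 1 of the 15, the latter, with an adjusted p of 0.0372, and with other size factors and a mean dispersion fit it called 0. Without scaling beyond the library size edgeR called the former, with an adjusted p of 0.032, and when neighbours of equal count were taken once it called both, with 0.0312 and 0.0375. Both windows had enough reads to be tested only through the forelimb libraries, where they are high. Their direction and p-values are therefore descriptions. Without the filter for enough reads, edgeR called 0 of 178 windows.

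Over the whole of chromosome 5, 1292 windows of 100 kb had reads and 246 had enough for the test. With fragments without reads on either neighbour left out, 34 had enough and 0 were called. Over the 246, edgeR called 0 (0%), the smallest adjusted p being 0.468, and 17 had an unadjusted p under 0.05, 9 of them higher in the forelimb. DESeq2 with its defaults called 9, of which 3 were higher in the forelimb and 6 in the hindlimb, and with the other setting 11, of which 6 were higher in the forelimb. The window with the smallest p in either tool was chr5:119400001-119500000, with 2, 1 and 4 reads in the forelimb and 156, 64 and 43 in the hindlimb, a log2 fold change of -5.42 and an adjusted p of 0.468 with edgeR, and an adjusted p of 0.000575 with DESeq2 and 0.00123 with its other setting. This window was named because the tools differ on it. It had enough reads to be tested only through the hindlimb libraries, where it is high, so its direction and p-values are descriptions.

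Over chromosome 5, the mean overlap of fragments within limbs did not exceed that across limbs. Reads fell on 1378, 1290 and 1112 chromosome 5 fragments in the forelimb and 1242, 967 and 1184 in the hindlimb, a difference of 129 fragments with p = 0.4 in the exact permutation test. The share of fragments common to a pair, out of those with reads in either, averaged 17.2% for the 3 forelimb pairs, 15.3% for the 3 hindlimb pairs and 16.4% for the 9 pairs across limbs. The highest overlap of all, 20.1%, was between forelimb replicate 1 and hindlimb replicate 1. Within-limb pairs lay 0.16 percentage points below the others, with p = 0.7 in an exact one-sided permutation test of the 10 assignments. Nearer the viewpoint the sign was the other way. Within 2 Mb the means were 22.2, 16.8 and 18.8% for forelimb, hindlimb and mixed pairs, and within-limb pairs lay 0.703 percentage points above the others, with p = 0.4 in the same exact test. In the TAD the means were 30.6, 27.6 and 27.2%, with single mixed pairs from 21.1 to 35.6%, and were not tested. After Benjamini-Hochberg adjustment over the 6 single measures every p was 0.8.

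**Figure D4:**
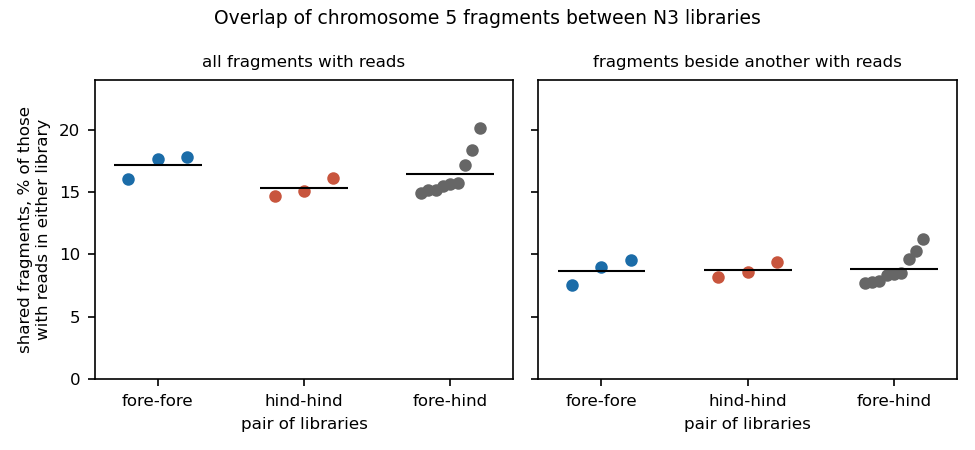
Overlap of chromosome 5 fragments with reads for each pair of the 6 libraries, as a percentage of the fragments with reads in either, with lines at the means, for all fragments beyond 20 kb (left) and for those beside another fragment with reads (right). On the left the mean of the forelimb pairs, 17.2%, lies above and that of the hindlimb pairs, 15.3%, below the mean of 16.4% for pairs across limbs, whose range reaches 20.1%.

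Distant reads were concentrated on few fragments, and most lay on fragments without a read neighbour. In each library the 10 most read fragments held 54.4 to 65.4% of the distant reads, and 51.8 to 83.5% of the distant reads lay on fragments with no read on either neighbour. Inside the TAD that share was 0.0536 to 18.8%. When fragments alone were left out, the mean overlaps were 8.66, 8.73 and 8.87% for forelimb, hindlimb and mixed pairs.

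Of the 51852 fragments, 134 had reads in all 6 libraries, 47324 in none and 3147 in 1. The 134 held 79.2 to 85.2% of the distant reads, and 113 of them lay more than 10 Mb from the viewpoint. Among the most read, chr5:134221541-134223108 overlaps *Gtf2ird2* and *Ncf1* and had 9281, 11344 and 7535 against 17348, 7272 and 16999. Its hindlimb shares averaged 18.3% of the distant reads and all lay above its forelimb shares of 9.26, 12.5 and 11.1%. Of the 134, the forelimb shares lay wholly above in 11.9% and wholly below in 2.24%. Others of the most read lay in *Oas1b* and, intergenic, 11895 bases from *Cib4*.

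The same fragments were read in the liver libraries titled as N3, whose descriptions name another enhancer. Of the 134, 133 had reads in at least 1 of the 3 N3 liver libraries and 123 in all 3, while 10.5% of all distant fragments had reads in any of them. From N2, 20 of the 134 (14.9%, against 2.48% of all distant fragments) had reads in any forelimb library, and from N1, 4 (2.99% against 0.885%), but those libraries were shallower, with 268772 to 570405 and 11176 to 20134 reads, so these counts cannot be set against those of N3.

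Some of the 134 fragments contained the 3′ end of the nested N3 primer. The 6 chromosome 5 fragments beyond 20 kb with the last 14 bases of the primer on either strand were all among the 134. The sequences at these 6 and at the fragment in *Gtf2ird2* and *Ncf1*, each in the direction of the primer, follow with the bases that equal it in capitals.
N3 nested primer: gttgtaagtagcagacacagAGAT
chr5:120824377-120824400, minus strand, *Oas1b*: aTacacAaatGCAGACACAGAGAT
chr5:35147790-35147813, plus strand: acaGacAtatGCAGACACAGAGAT
chr5:99240471-99240494, plus strand, *Rasgef1b*: tTaagtgtggGCAGACACAGAGAT
chr5:36429870-36429893, minus strand: tgaGatAaagGCAGACACAGAGAT
chr5:106071402-106071425, minus strand, *Gm25672*: GgatgAgaTgGCAGACACAGAGAT
chr5:147846695-147846718, minus strand: cactcggGagGCAGACACAGAGAT
chr5:134222562-134222585, minus strand, *Gtf2ird2* and *Ncf1*: GTTGgAgGTgGCAGACACAGgGAT

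At 13 or more bases, 9 of the 134 and 4 of the 47324 fragments without reads matched, and at 12 or more, 13 of the 134 and 56 of the 47324. The last of the lines above equals the primer at 20 of 24 bases with a break near its end. The 3′ end of the N3 biotin primer at 12 or more bases matched 0 of the 134, and those of the 4 primers of N1 and N2 matched 0 to 2. Match lengths and the 6 primers were looked through after the reads were seen, and fragments with reads in all libraries are also longer, with a median of 5626 bp against 1769 bp, so these counts are descriptions. Matches of 12 or more bases carried 11.6 to 20.3% of the distant reads.

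On the other chromosomes, which played no part in the choice of these lengths, 74 fragments had 14 or more bases, and 63 of them had reads in all 6 libraries and 1 in none. At 15 or more the counts were 32 of 33 and 0. Among all 895791 fragments there, 1935 had reads in all 6 and 835114 in none. Fragments with 14 or more bases carried 34.2% of the reads outside chromosome 5 in hindlimb replicate 3 and at most 19.2% in the other libraries. The part of the primer in these reads was not tested.

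**Figure D5:**
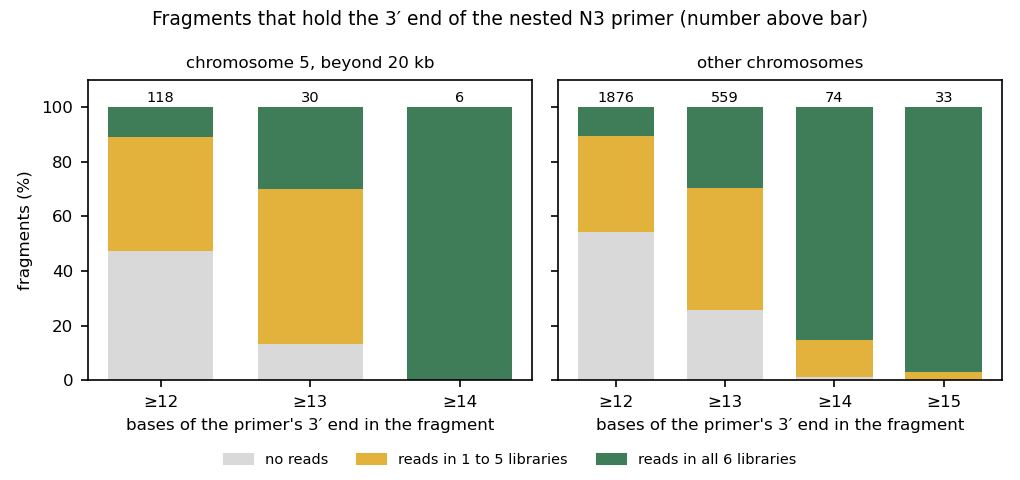
Percentage of fragments with no reads, reads in 1 to 5 and reads in all 6 N3 limb libraries, for fragments with at least the given number of bases of the 3′ end of the nested N3 primer, on chromosome 5 beyond 20 kb (left) and on the other chromosomes (right), with the number of fragments above each bar. At 14 or more bases all 6 fragments on chromosome 5 and 63 of 74 elsewhere have reads in every library.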

How the data were processed

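4C template from pooled E14.5 limb buds was amplified with pooled viewpoint primers and sequenced. Per the labels and the methods, the authors used cutadapt 1.10 for trimming and BWA 0.7.10-r789 for mapping to mm10, then removed blacklisted regions and alignments of low mapping quality. GATK 3.4-0 stands among the tools of the submitters' processing notes without a stated role. The deposited counts are whole reads per *BglII* fragment, not normalized. The deposited signal beside them equals the count divided by fragment length in kb and was not used. All 51861 inner fragment ends of chromosome 5 fall on a *BglII* site of GRCm38, so GENCODE vM21 was used for genes, and primers, enhancers and the TAD came from the supplementary files.

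A fragment was assigned by its midpoint. The 6 single values were tested with exact permutation tests over the 6 libraries, with Benjamini-Hochberg adjustment, and window counts with the quasi-likelihood test of edgeR 4.0.16 after filterByExpr and TMM scaling (threshold 0.05) and, as an alternative, DESeq2 1.42.0 in R 4.3.3. For windows within 2 Mb, library sizes are the reads within 2 Mb, and the TMM factors, taken from the 15 windows tested, ran from 0.485 to 2.68. The rest was computed in Python 3.11.15 with numpy 2.4.6 and pandas 2.3.3. Scripts were tested on simulated data. Libraries held 924023 to 1772337 reads.

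Same-numbered libraries did not deviate together in every pair (r = 0.33, 0.03 and -0.05 over the 10-kb windows), so the number was used as a block only as an alternative. The libraries, regions, gene lists and tests were chosen with earlier results of these data known. Elements named are the enhancers, viewpoints, the 14 genes of the selected span, 8 limb genes, fragments with reads in all 6 libraries (all in the TAD, elsewhere the 5 with the highest mean share, of which 2 are not reported here), fragments read in 1 limb only inside the TAD, and windows past the threshold. Items outside this rule are said to be chosen after their values were seen, and include the 6 primer matches, the fragments close to the viewpoint and the windows called by 1 tool only.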

Additional observations from a re-analysis of the deposited data

Results flagged for a closer look

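Reads outside chromosome 5 entered the comparisons between the limbs only through the total in shares of all reads. Many fragments there drew reads far above the limit that a count of 0 allows, and 1 of them was the most read fragment of its library. In N3 hindlimb replicate 3, 171462 reads lay on chr13:94404314-94411140, more than on any other fragment of that library, against 11712 and 8913 in the other hindlimb replicates and 7682, 14913 and 44531 in the forelimb replicates. It made up 10.8% of that library's reads and contains the last 15 bases of the nested N3 primer. The part of the primer in these reads was not tested.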

How the results depend on the processing

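No alternative brought a single value past the threshold, and the designs allow no p under 0.1 in the exact permutation tests and none under 0.25 with the replicate block. Of 91 alternatives to the 6 single values, 72 kept the direction and 19 turned it. The forelimb minus hindlimb TAD share of reads became 0.169 percentage points with 50 kb left out, 0.796 with each fragment counted once, 2.11e-05 as a share of all reads and 0.197 without the most read TAD fragment. The share within 2 Mb became -0.21 with counts capped. The *Nkx3-2* side became 5.07 with 10 kb left out and 0.0737 with neighbours of equal count taken once. The overlap within limbs minus between limbs became 0.16 at 10 or more reads, 0.703 within 2 Mb and 0.0355 percentage points with the replicate block. With the block, the differences in the other values stayed as they were by construction, and edgeR called 0 windows of either size.

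Leaving out 1 library at a time gave differences of 47 to 203 fragments, -0.57 to 0.575 points in the TAD share of reads, 1.59 to 8.55 in TAD fragments, -0.429 to 0.913 within 2 Mb, -7.94 to 5.21 for the *Nkx3-2* side, -0.852 to 1.24 for the overlap and 0 called windows throughout. Hindlimb replicates 2 and 3 moved the TAD share most, to -0.57 without the former and 0.575 without the latter. The 10-kb windows called went from 0 to 1 without scaling, 1 with DESeq2 and 2 with equal neighbours taken once, and the 100-kb windows from 0 to 9 with DESeq2. DESeq2 with poscounts size factors and a mean dispersion fit, which was run first and replaced by its defaults, called 0 and 11. The causes were not tested. This DESeq2 setting and leaving out fragments that stood alone, fragments around the N1 and N2 primers or the most read TAD fragment were chosen after seeing the data. Hindlimb replicate 2 had the fewest distant reads, and whether this limited what was detectable was not tested.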

Other observations

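Outside chromosome 5 the most read fragment over the 6 libraries was chr11:113502991-113508107, with 34417, 50119 and 28686 reads in the forelimb replicates and 56531, 37711 and 67417 in the hindlimb replicates, and 65378 to 96173 in the N3 liver libraries. It holds fewer than 12 bases of the primer's 3′ end. The 3 adjoining fragments at chr4:24511790-24515035 are the 4th, 8th and 9th of this order, and the 350-bp fragment in their middle, with 16 such bases, held 42609, 40486 and 15174 reads against 21349, 1306 and 18699. The reads outside chromosome 5 were 71.2 to 83.5% of each library, and 82.5 to 88.3% of them lay on the fragments read in all 6 libraries.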
